A study of Mus musculus with 12 samples.

Results

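The comparison described here sets BV-2 cells given nicotinamide mononucleotide (NMN) alone against untreated control cells, 3 libraries against 3, out of 12 libraries in all. BV-2 is an immortalised mouse microglial line, labelled in the sample records with the cell type "macroglia". The other 6 libraries are 3 of cells given lipopolysaccharide (LPS, a bacterial wall component that activates microglia) and 3 given LPS+NMN; the series was built around NMN and ferroptosis induced by LPS, an iron-dependent form of cell death. Doses and times are not given in the sources used here, and no label states that replicate libraries are separate cultures; p-values therefore cover the spread among these samples alone, and that spread may be technical. All 4 groups are the same cell line, and none carries a stated genetic change. Which libraries received NMN or LPS rests on the sample titles alone; the catalogues hold no independent check of it, and every NMN value below depends on it.

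Each deposited file is a catalogue of transcript events, that is, of the first and last exons, retained introns, skipped exons and alternative ends of exons found in 1 library, and it holds no read count or expression level. A gene was a member of the comparison when any of the 6 libraries listed it, which gave 13592 of the 14275 genes in the 12 libraries; 11084 were in all 6. An event was called gained when all 3 NMN libraries and no control library listed it, and lost in the opposite case. First and last exons were matched by gene and inner splice end, other events by gene, start and end. The number of listed events of a gene describes how many transcript ends and splice choices were found and is not its expression level; a listed gene has at least 2 events, a first and a last exon. In these bulk samples, fewer cells of a type and less RNA per cell cannot be told apart.

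NMN is a direct precursor of NAD, the redox carrier that sirtuins, PARP enzymes and CD38 also consume. Cells make NMN from nicotinamide with the enzyme Nampt and convert it to NAD with the Nmnat enzymes, while extracellular NMN is taken up directly or after dephosphorylation to nicotinamide riboside. Microglia, the resident macrophages of the brain, answer bacterial products through Toll-like receptors, NF-kB and interferon regulatory factors, and the interferon they secrete induces a large set of antiviral genes in the same cells. Many of these genes carry an interferon-stimulated response element in their promoters, bound by interferon regulatory factors and by the complex that forms downstream of the interferon receptor.

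The catalogues of NMN-treated cells held interferon-response genes and a few cytokine genes that control catalogues lacked, and a further set of genes led by Ntng2. By limma with Benjamini-Hochberg adjustment, on log2(events + 1) in a model of all 12 libraries, 26 of 11671 tested genes had more events with NMN (0.223%) and 1 had fewer (0.00857%). Over all tested genes the median log2 difference was 0, with 40.7% of means higher and 43.4% lower. At an unadjusted p under 0.05, 406 genes were higher (3.48%) and 411 lower (3.52%). Of the 26 genes, 24 were in no control library, and each of these 24 was listed in all 9 treated libraries of the series. That listing was part of what the call required. The model takes each gene's spread from all 4 groups and moderates it towards genes of similar mean over the 12 libraries. Zbp1, Gpr18, Il12b and Fbxo44 did not vary within any group. Their SE, 0.22 in each, comes from that moderation and is no measured spread of replicates. Zbp1, Trim30c and Atg4a-ps each had 0 events in the control libraries and 2 in each NMN library, yet limma gave adjusted p = 0.00715 for Zbp1, which every LPS and LPS+NMN library listed, and adjusted p = 0.252 for Trim30c, which 1 LPS library lacked, and for Atg4a-ps, which all 6 lacked. The calls of these 24 genes are therefore no independent sign of likeness to LPS. With the 6 NMN and control libraries alone limma called 1 gene with more events, Ntng2, and 0 with fewer (681 genes at an unadjusted p under 0.05).

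Irf7, a transcription factor that amplifies the type I interferon response (chromosome 7, 141262706 to 141266481, minus strand, GRCm38), had 7, 9 and 7 events in the control libraries and 16, 16 and 15 with NMN. All NMN libraries lay above all control libraries. The log2 difference was 0.95 ± 0.14 (SE, limma adjusted p = 0.00869, and adjusted p = 0.424 with the 6 libraries alone). Irf7 held 16 distinct events over the 6 libraries, of which 7 were in every library, 6 were gained and 0 were lost. The gained events were a further first exon, skipped exons of 67, 163 and 59 nt, an approximate form of the 59 nt skip, and a skipped run of exons. The 67 nt exon lies at 140844406 to 140844472 on chromosome 7 and the 163 nt exon at 140844406 to 140844568, so that they share an end (positions of the files, whose mouse assembly has no stated name). The 59 nt exon lies at 140844638 to 140844696. Each of these lengths is that of an annotated Irf7 exon in GENCODE M21, and none is a multiple of 3. Every gained Irf7 event was also in all 3 LPS and all 3 LPS+NMN libraries, which had 15, 16 and 16 and 16, 16 and 16 events.

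**Figure D1:**
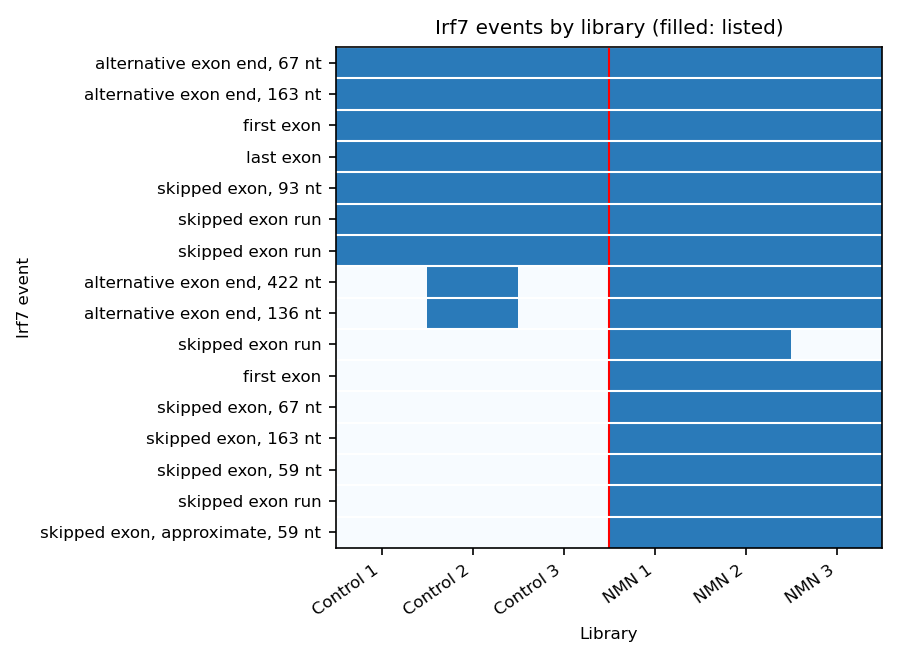
Listed Irf7 events in the 3 control and 3 NMN libraries; each row is 1 of the 16 distinct events, a filled cell means that the library listed it, and lengths are in nucleotides (of the exon itself for skips, and of the whole exon for alternative ends). The upper 7 rows are filled throughout, and the lowest 6 are filled in the NMN libraries alone.

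Oasl2, an antiviral protein of the oligoadenylate synthetase family, had 3 events in each control library and 10, 7 and 7 with NMN. The groups did not overlap, and the log2 difference was 1.15 ± 0.19 (SE, limma adjusted p = 0.0207). This call was kept in 6 of 16 alternative settings, against 13 of 16 for Irf7. Of 18 Oasl2 events over the 6 libraries, 14 were in 1 library alone and 1, the skip of a 101 nt exon, was gained.

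Ifit3b and Ifit1bl1, of the interferon-induced family with tetratricopeptide repeats, and Zbp1, a sensor of Z-form nucleic acids that can start inflammatory cell death, were in no control library. Ifit3b had 2, 3 and 2 events with NMN, Ifit1bl1 2, 3 and 2, and Zbp1 2, 2 and 2. For Zbp1 that is a single first and a single last exon in each library. Their log2 differences were 1.72 ± 0.24, 1.72 ± 0.24 and 1.58 ± 0.22 (SE, limma adjusted p = 0.00715, 0.00731 and 0.00715). The SE of Zbp1 comes from the moderation, as its number did not vary within any group. The difference of a gene that enters the catalogue depends on the added 1, so it is no fold change. Reads of Ifit3b and Ifit1bl1 may be shared with their close relatives, which the counting could split between them.

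The response element was looked for in RefSeq promoter windows (GRCm38.p6, 250 bases before to 50 after each gene start) as the letters GAAA, NN and GAAA in a row, where N is any base, on either strand. Of the 26 genes with more events, 23 matched a window by symbol, with 28 windows between them. In 5 genes 7 of these windows held the letters. Windows of a gene with several starts can overlap, and those of Apol9b do and hold the same matches. Among all 32851 windows 1131 held them (3.44%). The 5 genes were Apol9b, Gpr18, Ifit1bl1, Ifit3b and Slc26a4. Their windows are shown because they place the motif in the genes that entered the catalogues, and the matches are in capitals, on the gene's strand. They lie at chr15:77728822-77729121 (plus strand) for Apol9b, chr19:34607707-34608006 (plus) for Ifit3b, chr19:34599378-34599677 (minus) for Ifit1bl1, chr14:121915839-121916138 (minus) for Gpr18 and chr12:31559935-31560234 (minus) for Slc26a4.
Apol9b: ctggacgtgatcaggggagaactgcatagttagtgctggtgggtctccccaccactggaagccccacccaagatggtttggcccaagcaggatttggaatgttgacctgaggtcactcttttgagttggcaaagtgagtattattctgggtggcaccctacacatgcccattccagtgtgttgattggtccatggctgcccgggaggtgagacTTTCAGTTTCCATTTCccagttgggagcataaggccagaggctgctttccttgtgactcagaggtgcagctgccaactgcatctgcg
Ifit3b: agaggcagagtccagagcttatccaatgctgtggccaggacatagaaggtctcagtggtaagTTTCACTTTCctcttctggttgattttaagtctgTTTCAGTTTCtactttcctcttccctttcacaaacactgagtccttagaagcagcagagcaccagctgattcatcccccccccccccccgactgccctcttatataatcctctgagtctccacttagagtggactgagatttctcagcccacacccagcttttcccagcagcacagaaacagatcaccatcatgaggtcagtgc
Ifit1bl1: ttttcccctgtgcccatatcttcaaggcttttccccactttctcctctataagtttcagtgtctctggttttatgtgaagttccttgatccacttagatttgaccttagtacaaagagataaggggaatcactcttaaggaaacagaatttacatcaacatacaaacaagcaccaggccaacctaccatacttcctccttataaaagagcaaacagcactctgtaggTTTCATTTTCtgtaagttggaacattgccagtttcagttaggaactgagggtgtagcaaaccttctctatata
Gpr18: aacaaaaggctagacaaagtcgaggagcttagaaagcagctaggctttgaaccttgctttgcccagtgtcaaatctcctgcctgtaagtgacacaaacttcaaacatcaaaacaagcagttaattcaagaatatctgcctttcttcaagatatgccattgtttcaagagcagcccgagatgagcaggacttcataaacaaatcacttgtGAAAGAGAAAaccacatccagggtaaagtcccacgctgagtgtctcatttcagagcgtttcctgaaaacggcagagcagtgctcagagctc
Slc26a4: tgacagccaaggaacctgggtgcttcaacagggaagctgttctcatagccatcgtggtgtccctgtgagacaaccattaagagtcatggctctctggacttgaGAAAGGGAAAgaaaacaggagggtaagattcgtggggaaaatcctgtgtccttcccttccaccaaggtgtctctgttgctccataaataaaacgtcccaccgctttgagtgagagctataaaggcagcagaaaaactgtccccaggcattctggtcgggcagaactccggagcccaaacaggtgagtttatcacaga

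In Apol9b 2 overlapping matches begin 37 and 31 bases before the gene start, and in Ifit3b 2 separate ones begin 188 and 154 bases before it. In the Ifit1bl1 window shown the match begins 23 bases before the start, and in the window of its other start 104 bases before. The single matches of Gpr18 and Slc26a4 begin 41 and 147 bases before. The windows of Irf7 and Oasl2 did not hold these letters. The gamma-activated site TTCNNNGAA was in 9 of the 28 windows, in 6 genes, and in 8.3% of all windows. Serpina11, Serpina3f and Urah each had 2 overlapping windows with the same site, which was therefore counted in both. The windows of Gm3776 and Gsta1 were nearly alike in sequence. These windows are not separate observations. The NF-kB motif, GGGA, N and TTTCC in a row, was in 0 of the 28 and in 0.411% of all. At that share 28 windows would usually hold 0. Il36a, Zbp1 and Dnase1l3 matched no window and were not searched for any motif. A match is a description of the letters and not of a bound site.

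The wider list of interferon-response genes had 53 members, all of them listed in the catalogues and 50 of them tested. On the log2(events + 1) scale 40 had a higher mean with NMN and 6 a lower one, with a median difference of 0.277 against 0 over all genes. Limma called 5 higher (Irf7, Oasl2, Ifit3b, Ifit1bl1 and Zbp1) and 0 lower, against 0.223% and 0.00857% of all tested genes. At an unadjusted p under 0.05, 17 were higher and 0 lower, against 3.48% and 3.52%. In 11 of the 53 every NMN library was above every control library and in 0 below, against 1.85% and 2.02% of all genes in the 6 libraries. Summed over the list, a control library held 170, 167 and 144 events and an NMN library 204, 233 and 241, without overlap. Of the list's 391 distinct events, 31 were gained (7.93%) and 1, a first exon of Rtp4, was lost (0.256%), against 0.545% and 0.473% of all events. The list was chosen with earlier results of these data known, so these shares are a description and no independent support.

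The members below were chosen after their values were seen, and none passed limma's adjusted threshold. Ifi44, an interferon-induced gene, had 2, 2 and 0 events in control and 5, 6 and 9 with NMN, and gained 4 events: a first exon, skips of 101 and 196 nt exons and a retained intron of 250 nt (log2 difference 1.85 ± 0.38, limma adjusted p = 0.138). Gbp3, a guanylate-binding GTPase, had 2 in each control library and 5, 9 and 5 with NMN. Dhx58, a helicase that modulates viral RNA sensing, had 3, 4 and 3 against 5, 6 and 6. Both had groups that did not overlap, as had Trim30d, Mx1 and Eif2ak2. Eif2ak2, the kinase that halts translation on double-stranded RNA, had 4 in each control library and 5, 6 and 6 with NMN. Some classical interferon targets hardly varied and others varied within groups. Ifit1 had 2 and Cxcl10 3 events in all 6 libraries, and Isg15 and Rsad2 had 2, with 3 in NMN replicate 3. Oas2 had 10, 8 and 9 events against 10, 21 and 13, Oas1a 7, 6 and 2 against 2, 5 and 4, Usp18 6, 4 and 2 against 4, 6 and 6, and Ifit2 5, 2 and 3 against 3, 3 and 4; these groups overlapped.

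**Figure D2:**
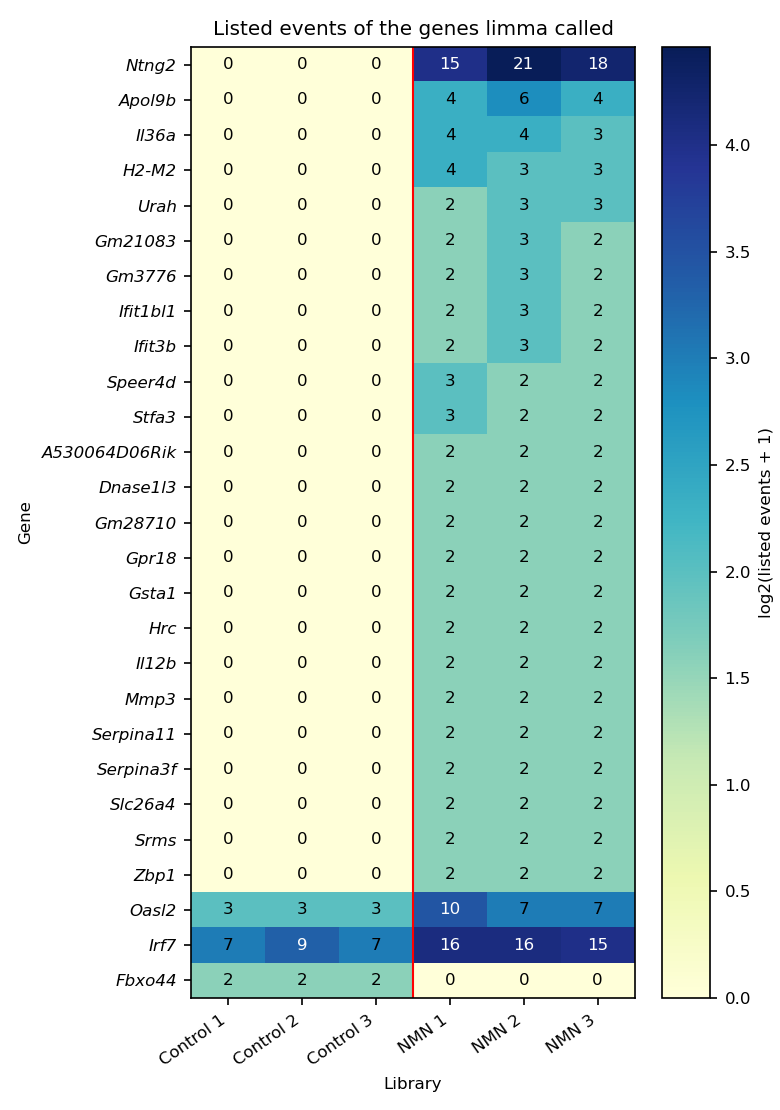
Listed events in each of the 6 libraries for the 27 genes called by limma in NMN against control, ordered by log2 difference; numbers are events, colour is log2(events + 1), and the red line separates the groups. In 24 genes the control cells are 0, Oasl2 and Irf7 differ in number, and Fbxo44 is at 0 with NMN.

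Ntng2, a membrane-anchored netrin-G that guides axons (chromosome 2, 29194541 to 29253005, minus strand, GRCm38), was in no control library and had 15, 21 and 18 events with NMN. Its log2 difference was 4.24 ± 0.23 (SE, limma adjusted p = 6.42e-06), and it was called in all 16 alternative settings. Ntng2 had 35 distinct events over the 3 NMN libraries, of which 24 were in 1 library alone and 8 in all 3. The 8 were 5 first exons, 1 last exon, the skip of a 138 nt exon and a skipped run. The LPS libraries held 16, 22 and 23 Ntng2 events and the LPS+NMN libraries 19, 30 and 36.

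Il36a and Il12b were the called members of the NF-kB cytokine and chemokine list, where 0.223% of all tested genes were called higher. Il36a, an interleukin-1 family cytokine, had 4, 4 and 3 events with NMN and 0 in each control library (log2 difference 2.21 ± 0.14, limma adjusted p = 1.31e-05). Il12b, the subunit shared by interleukins that direct T cell responses, had 2 in each NMN library. Of the list's 35 genes 31 were listed and 25 tested; 17 had a higher and 3 a lower mean, with a median difference of 0.138. Of the list's 135 events 11 were gained (8.15%) and 0 lost, against 0.545% and 0.473% of all events. Its summed events were 74, 68 and 64 in control and 88, 84 and 87 with NMN, without overlap. This list too was chosen with earlier results of these data known. Csf3, a granulocyte growth factor, had 2, 0 and 0 events against 2, 3 and 5, and Il36g, another interleukin-36, 2, 2 and 0 against 4, 5 and 3; neither was called (limma adjusted p = 0.270 and 0.354). The classical targets Tnf and Il1b had 2 events in each of the 6 libraries, Il6 had 2, 3 and 3 against 3, 3 and 3, and Nos2 2, 2 and 2 against 2, 2 and 3.

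Of the other called genes in no control library, Apol9b, an apolipoprotein L family gene, had 4, 6 and 4 events with NMN. H2-M2, a non-classical class I histocompatibility gene, had 4, 3 and 3, and Urah, a hydrolase of uric acid breakdown, 2, 3 and 3. Speer4d, a testis-associated gene, and Stfa3, a cysteine protease inhibitor, had 3, 2 and 2 each. The rest with standard gene names had exactly 2 events in every NMN library: the protease Mmp3, the secreted DNase Dnase1l3, the receptor Gpr18, the calcium-binding protein Hrc, the glutathione transferase Gsta1, the kinase Srms, the anion exchanger Slc26a4 and the protease inhibitors Serpina3f and Serpina11. Apol9b, H2-M2, Speer4d, Stfa3, Gsta1 and Serpina3f have close relatives in the genome, with which their reads may have been mixed. Apol9a, the neighbour of Apol9b, had 2, 0 and 2 events in control and 4, 4 and 4 with NMN, and gained 2 first exons.

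The LPS libraries were set directly against the NMN libraries, since NMN and LPS are otherwise compared with the same 3 control libraries. Limma called 0 genes in NMN against LPS, with 577 at an unadjusted p under 0.05. Irf7 had 15, 16 and 16 events in LPS libraries (log2 difference, NMN minus LPS, 0.00 ± 0.14), Apol9b 6, 4 and 4 (0.00 ± 0.18), H2-M2 3, 3 and 4 (0.00 ± 0.16) and Il36a 5, 4 and 4 (-0.19 ± 0.14). The NMN and LPS groups overlapped in each of these 4 genes. The interaction term of the same model called 5 genes (0.0428% of 11671), Ntng2, Apol9b, H2-M2, Il36a and Urah, all at 0 in the control libraries that both terms share. The number of events does not measure level, so these values do not show equal expression. Fbxo44 is the called gene that went the other way: LPS libraries had 2 events each and NMN libraries 0, a log2 difference of -1.58 ± 0.22 that did not pass (limma adjusted p = 0.0609). Because these event numbers in NMN and LPS libraries lie so close, an exchange of libraries between those groups could not be seen in these genes.

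The 1 gene with fewer events was Fbxo44, an F-box subunit of a ubiquitin ligase (chromosome 4, 148152800 to 148160482, minus strand, GRCm38). It had 2 events in each control library, 0 in each NMN library, and 2 in each of the 6 LPS and LPS+NMN libraries (log2 difference -1.58 ± 0.22, limma adjusted p = 0.00715, and adjusted p = 0.702 with the 6 libraries alone). It was the only gene listed in every other library of the series and in no NMN library.

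Presence alone set apart 49 genes listed by every NMN and by no control library (0.361% of 13592) and 37 in all control and no NMN libraries (0.272%). Most sat at the smallest number a listing can have: 34 of the 49 and 33 of the 37 had exactly 2 events in each listing library. Of the 49, 24 were in all 6 LPS and LPS+NMN libraries and 1, the pseudogene Atg4a-ps, in none; of the 37, 1 was in all 6 and 4 in none. The entering genes that limma did not call include Ifi213 (3, 2 and 2 events), an interferon-inducible gene of the AIM2-like family, and Ccdc54 (2, 2 and 3). Apol7a, Baalc and Clca3b had 2 events in each NMN library. By the same rule of naming, the leaving genes were led by Plppr3, a lipid phosphatase-related membrane protein (2, 4 and 2 events in control), the polarity protein Crb3 (3, 2 and 2) and Ipcef1 (2, 3 and 2). Cd79b, a chain of the B cell receptor, F13a1, a coagulation factor subunit expressed by macrophages, the collagen Col5a1, the cytochrome Cyp2b10, the growth factor Epgn, the transcriptional regulators Cited1 and Dpf3, the Wnt modulator Dact1, Armh2, B3gnt9, Cacna2d4 and Carmil3 each had 2 events in every control library.

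By class of event, gains outnumbered losses for first and last exons, runs of skipped exons and retained introns, and losses outnumbered gains for single skipped exons, runs of retained introns and alternative exon ends. Of 105735 distinct events in the 6 libraries 576 were gained (0.545%) and 500 lost (0.473%), in 436 and 391 genes. First exons had 218 gains and 144 losses of 38075 (0.573% and 0.378%), last exons 119 and 100 of 27265 (0.436% and 0.367%). Skipped exons had 85 and 108 of 13122 (0.648% and 0.823%), alternative exon ends 69 and 97 of 15069 (0.458% and 0.644%), and retained introns 21 and 9 of 1979 (1.06% and 0.455%). Runs of several skipped exons had 22 and 15 of 2974 (0.74% and 0.504%), and runs of retained introns 1 and 3 of 253 (0.395% and 1.19%). All splicing events together, with their approximate forms, had 239 gains and 256 losses of 40395 (0.592% and 0.634%). These are descriptions with no test. A listing is unstable between replicates, as 42.4% of the events were in 1 library alone and 25.8% in all 6. In the approximate forms, where an exon's boundary differs between the transcripts compared, alternative exon ends had 17 gains and 5 losses of 2917 (0.583% and 0.171%), 8 of the gains in Rnf13 and Trappc2. Approximate skipped exons had 16 and 16 of 2703 (0.592% each), and approximate skipped runs 3 and 0 of 502 (0.598% gained). Approximate retained introns had 4 and 3 of 787 (0.508% and 0.381%), and their runs 1 and 0 of 89 (1.12% gained). Within genes that all 6 libraries listed, first exons kept more gains than losses, 170 against 126, while last exons had 74 against 84. Last exons also turned, to 121 gains and 128 losses, when matched by start and end, where first exons had 184 and 128. With an event required in at least 2 libraries of a group instead of 3, first exons had 1162 gains and 1017 losses.

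**Figure D3:**
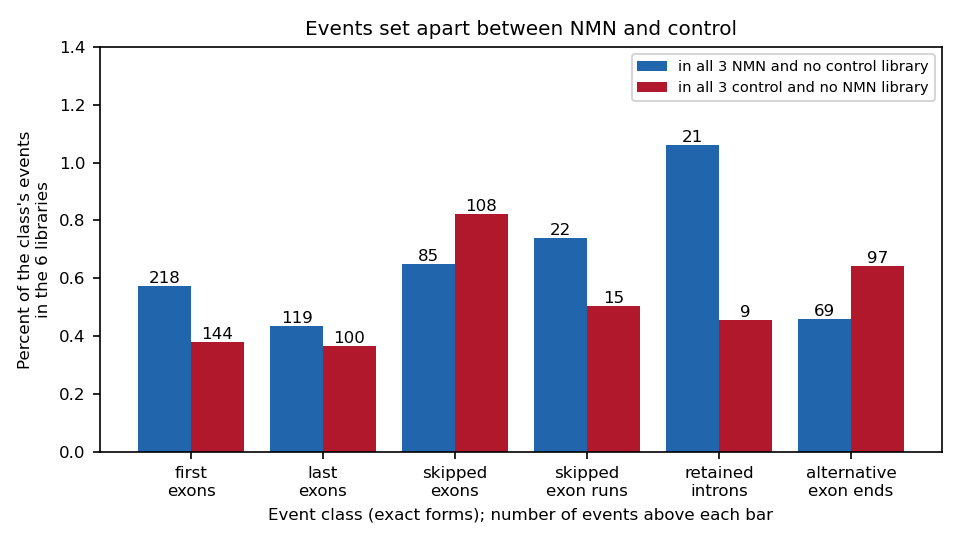
Share of the events of each class, exact forms, that were in all 3 NMN and no control library (blue) or in all 3 control and no NMN library (red), as percent of the class's distinct events in the 6 libraries; the number of events is above each bar. First exons, last exons, skipped runs and retained introns have the higher bar in blue, and skipped exons and alternative exon ends in red; runs of retained introns, with 1 gain and 3 losses, are not drawn.

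The gained skipped exons had a median length of 118 nt and 39 of 85 were multiples of 3 (45.9%), the lost ones also 118 nt with 46 of 108 (42.6%). All 13122 skipped exons had a median of 113 nt and 43.0% were multiples of 3. Of the gained ones 70 of 85, and of the lost ones 98 of 108, had the length of an annotated exon of their gene.

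Among genes with gained events, Aim2, the cytosolic DNA sensor that assembles an inflammasome, had 10, 7 and 6 events in control and 16, 15 and 16 with NMN. It gained the skip of an exon in 2 forms of 90 and 811 nt that share a start, and the 2 matching alternative ends. The 811 nt form and both alternative ends were in 0 of the 6 LPS and LPS+NMN libraries, while the 90 nt skip was in 3 LPS libraries and 1 LPS+NMN library. LPS libraries had 6, 6 and 14 Aim2 events and LPS+NMN libraries 9, 10 and 5, and the NMN difference did not pass (log2 0.97 ± 0.32, limma adjusted p = 0.470). Of 28 Aim2 events in the 6 libraries 12 were in 1 library alone.

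Luc7l2, a factor of 5′ splice site recognition, had 21, 20 and 8 events in control and 35, 31 and 34 with NMN. It gained 2 alternative ends of 1 exon, 135 and 101 nt long, a retained intron of 504 nt and an approximate skipped run, none of them in an LPS or LPS+NMN library. Its number of events did not pass (limma adjusted p = 0.499). Ppox, the mitochondrial oxidase of haem synthesis, gained 3 retained introns of 928, 294 and 132 nt, with 3, 2 and 2 events in control and 7, 5 and 5 with NMN; the LPS libraries listed none of the 3, and LPS+NMN replicate 1 listed those of 928 and 132 nt. Uchl1, a deubiquitinase best known from neurons, gained 2 retained introns and 2 alternative ends (2, 4 and 4 events against 9, 6 and 6). Il15ra, the interleukin-15 receptor chain, gained 2 skipped runs and 1 approximate skipped run, and lost 1 event. Oas1c, of the oligoadenylate synthetase family, gained 3 skipped runs.

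Among lost events, Fes, a tyrosine kinase of myeloid cells, lost 6: 2 alternative ends of 1 exon, a last exon, 2 retained introns of 313 and 79 nt and a retained intron run. None of the 6 was in an LPS or LPS+NMN library. Fes had 23, 23 and 14 events in control and 8, 8 and 12 with NMN, without overlap. Cdk4, the kinase of the step from G1 to S phase, lost the skip of an exon in 2 forms of 252 and 234 nt that share an end, both annotated lengths and both multiples of 3; it had 7 events in each control library and 5 in each NMN library. Glrx3, a monothiol glutaredoxin of iron-sulfur cluster delivery, lost 3 last exons (7, 6 and 7 events against 4, 4 and 3). Chek2, a DNA damage checkpoint kinase, had 11, 10 and 9 events against 3, 4 and 4 and lost 2 alternative ends of 1 exon and an approximate skip of a 130 nt exon (log2 difference -1.24 ± 0.23, limma adjusted p = 0.0825). Ppp6r2, a phosphatase subunit, lost 4 alternative ends, and Arhgef1, a guanine nucleotide exchange factor, lost a skip, a retained intron and 2 alternative ends of the same exon (17, 19 and 16 events against 8, 10 and 9).

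A gain and a loss of the same class occurred together in 24 genes, 12 of them for first exons, 9 for last exons and 3 for skipped exons. Bloc1s1, a subunit of a complex of lysosome-related organelles, had 2 events in each of the 6 libraries, and its control and NMN libraries named different first exons. The first exon lost with NMN was in all 6 LPS and LPS+NMN libraries and the gained one in none. In Atr, the kinase that answers replication stress, the gained first exon lies on the plus strand and the lost one on the minus strand, opposite to the gene. Cetn4 also exchanged first exons, Atl3 and Ctso last exons, and Cpped1 skipped exons of 219 nt (gained) and 72 nt (lost). Last exons were also exchanged in Parp1 and Ndufb1. In Parp1 the gained last exon was in replicates 2 and 3 of both LPS and LPS+NMN. The lost one was in replicate 1 of both, so the exons varied within those groups. Ndufb1, a subunit of respiratory complex I, was chosen after its values were seen. Its gained last exon was in all 6 LPS and LPS+NMN libraries and its lost one in none.

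The NAD genes, which handle the supplied compound, had no call, where 0.223% of all tested genes were called higher and 0.00857% lower. At that share a list this short would usually hold 0 calls, as would the uptake and NAD-consuming lists below. Of 22 NAD synthesis and salvage genes 19 were listed and 15 tested; 5 had a higher and 10 a lower mean with NMN, the median difference was -0.14, and 0 were called by limma, with 1 gene at an unadjusted p under 0.05. Nampt, the rate-limiting salvage enzyme (chromosome 12, 32819545 to 32853349, plus strand, GRCm38), had 6 events in each control library and 7, 8 and 7 with NMN, so the groups did not overlap (log2 difference 0.25 ± 0.14, limma adjusted p = 0.758). LPS libraries had 6, 6 and 7 and LPS+NMN libraries 6, 7 and 6. Nmnat1, the nuclear enzyme that turns NMN into NAD, had 3 events in each of the 12 libraries, which leaves nothing to test.

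Afmid, the formamidase of NAD synthesis from tryptophan (chromosome 11, 117825924 to 117839908, plus strand, GRCm38), had 2 events in each control library and 5 in each NMN library. It gained 2 alternative ends of 1 exon, 142 and 268 nt long; LPS libraries had 2, 4 and 2 events and LPS+NMN libraries 5, 2 and 5. The log2 difference was 1.00 ± 0.27, which did not pass over all genes (limma adjusted p = 0.327). Kmo, a later enzyme of that route, had 2 events in each control library and 0, 0 and 2 with NMN, and its control last exon was in no NMN, LPS or LPS+NMN library. Nmrk1, the kinase that makes NMN from nicotinamide riboside, had 2, 14 and 4 events against 3, 6 and 3. Nmnat3, the mitochondrial form, had 5, 3 and 6 against 3, 3 and 5 and gained a last exon.

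Uptake and breakdown genes gave few events. Slc12a8, reported as an NMN transporter, had 0, 2 and 0 events in both groups, and Nt5e, the ecto-enzyme that removes the phosphate of NMN, was in none of the 12 libraries. Of 15 genes on the uptake list 8 were listed and 7 tested, with 2 means higher and 3 lower and 0 called. Cd38, an NAD glycohydrolase, had 2, 3 and 2 events in both groups. Among 27 NAD-consuming enzymes, all listed and 26 tested, 11 means were higher and 12 lower and 0 were called. Sirt1, the nuclear deacetylase, had 5, 6 and 5 events in control and 3, 2 and 5 with NMN (limma adjusted p = 0.714), and Parp1 4, 2 and 3 against 2, 3 and 2. Parp9, an interferon-inducible member of the PARP family, had 5, 6 and 5 against 7, 10 and 8 and gained 2 events. Events of 20 NAD redox partners summed to 78, 73 and 75 in control and 66, 66 and 71 with NMN, without overlap; Nnt, the mitochondrial transhydrogenase, had 7, 8 and 6 against 4, 3 and 5 (limma adjusted p = 0.488).

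**Figure D4:**
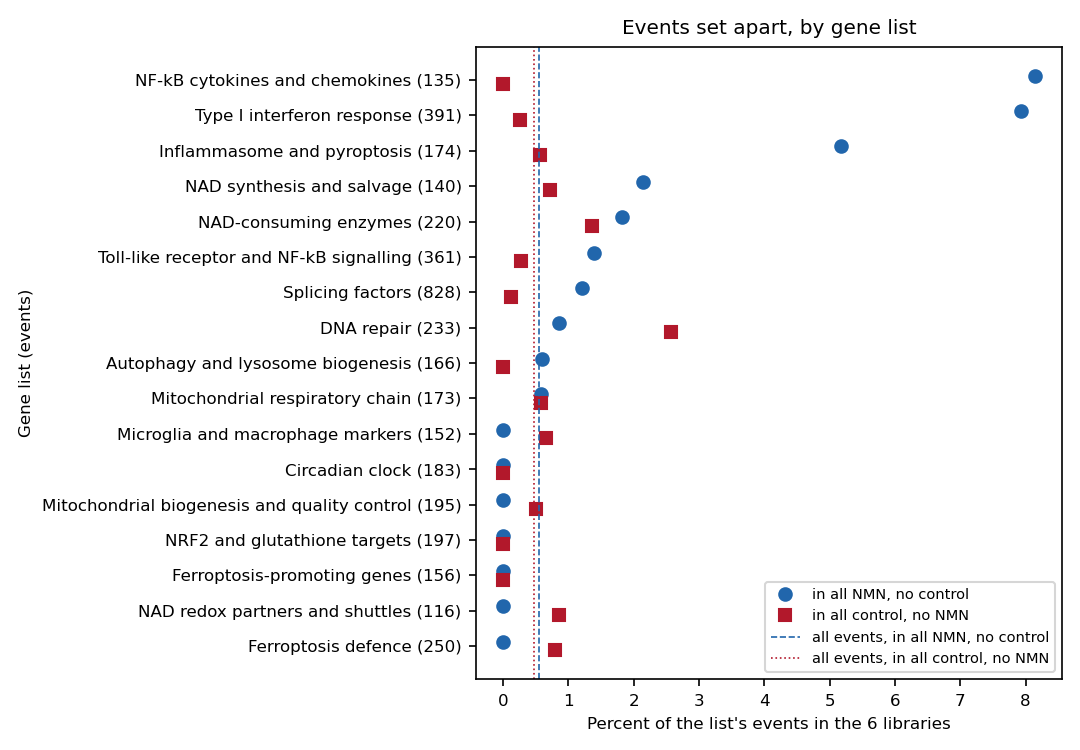
Gained (blue circles) and lost (red squares) events as percent of each list's distinct events in the 6 libraries, for the lists with at least 100 events (number in brackets); vertical lines are the shares over all events. The cytokine and interferon lists lie furthest right, at 8.15% and 7.93% gained, against 0.545% of all events. The lists were chosen with earlier results of these data known.

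Ferroptosis genes had no call, which lists of this size would usually show at the shares over all tested genes (0.223% called higher and 0.00857% lower). Among 25 tested defence genes the mean was higher in 12 and lower in 12, and among 22 tested promoting genes in 9 and 7; limma called 0 in both lists, with 0 and 1 at an unadjusted p under 0.05. Gpx4, the peroxidase of lipid hydroperoxides, had 2 events in each control library and 3, 2 and 2 with NMN. Slc7a11, the cystine importer, had 14, 2 and 4 against 5, 3 and 2. Acsl4, the ligase that prepares polyunsaturated fatty acids for membrane lipids, had 6, 8 and 10 against 9, 7 and 8, and Hmox1 had 2 in every library. Of 250 defence events 0 were gained and 2 lost, and of 156 promoting events 0 and 0, against 0.545% and 0.473% of all events. These numbers are too small to tell from those shares.

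Receptors and signalling genes upstream of the cytokines had 0 calls among 37 tested, with 18 means higher and 13 lower. Over all tested genes 0.223% were called higher and 0.00857% lower, so 0 calls is near that share. Tlr3, the receptor for double-stranded RNA, had 3, 2 and 2 events in control and 5, 7 and 5 with NMN (log2 difference 1.00 ± 0.20, limma adjusted p = 0.112), and Ikbke, a kinase of interferon induction, 2, 4 and 2 against 7, 5 and 10 (adjusted p = 0.270). Tlr4, the LPS receptor, had 3 in each control and 2 in each NMN library. Among 16 tested inflammasome genes the mean was higher in 10 and lower in 5. The list gained 9 of 174 events (5.17%), 4 of them in Aim2, and lost 1 (0.575%), against 0.545% and 0.473% of all events. Of 55 tested splicing factors 23 were higher and 28 lower with 0 called. Of their 828 events 10 were gained (1.21%), 4 in Luc7l2 and 3 in Srsf11, and 1 was lost (0.121%). Srsf5, a serine-arginine splicing factor, had 8, 7 and 8 events against 16, 13 and 14, without overlap (log2 difference 0.82 ± 0.16, limma adjusted p = 0.0844).

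Most markers of microglia were listed, and so were some markers of other cell types. Aif1, Cd68, Spi1, Csf1r, Trem2 and Tmem119 were in all 6 libraries, while Sall1 and Siglech were in none and Cx3cr1 in 1. Of 30 microglia and macrophage markers 27 were listed; their summed events were 82, 84 and 86 in control and 68, 73 and 76 with NMN, without overlap, and 0 of 21 tested were called (2 fewer at an unadjusted p under 0.05). Of those tested, 6 had a higher mean with NMN, 12 a lower and 3 an equal one, with a median log2 difference of -0.107. C1qa, a complement component, had 2 events in each control library and 0, 2 and 0 with NMN. P2ry12, a purine receptor, had 0, 4 and 2 against 0, 0 and 0. T and B cell markers summed to 9, 9 and 8 events and to 4, 6 and 4, with Cd3e, Cd8a and Ms4a1 at 0 throughout. The neuronal genes Rbfox3, Map2, Snap25 and Syt1, the oligodendrocyte genes Mog and Olig2 and the astrocyte gene Aqp4 were in none of the 6, while the endothelial genes Pecam1 and Cdh5, the glutamate transporter Slc1a2 and the tubulin Tubb3 had 2 events in each. Of 10 oligodendrocyte markers 6 were listed, with summed events of 15, 18 and 14 in control and 10, 12 and 14 with NMN. Of the 5 tested, 2 had a higher and 3 a lower mean. In 1 listed marker every NMN library lay above every control library, and in 0 below. Mbp had 5, 8 and 7 against 2, 6 and 4, so its groups overlapped. Of 8 astrocyte markers 3 were listed (6, 8 and 6 against 6, 8 and 8), of 10 endothelial and fibroblast markers 6 (8, 4 and 8 against 6, 8 and 8), and of 10 neuronal markers 2 (2, 2 and 2 against 4, 4 and 2). The microglial and T and B cell sums moved beside the interferon and cytokine gains, and their part in those was not tested. In all, 3 of 23 gene lists had higher summed events in every NMN library (interferon, cytokine and inflammasome) and 3 lower (microglia, T and B cell, NAD redox). Full separation of 3 against 3 can reach an exact two-sided permutation p of 0.1 at best. Some of 23 lists would therefore separate with no difference present. The lists were chosen with earlier results known, and their sums were not tested.

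In size, the catalogues of the groups overlapped in every measure taken. Control libraries held 55787, 53113 and 51039 events and NMN libraries 50784, 53313 and 54353; splicing events, which include all classes but first and last exons, numbered 19724, 18150 and 16818 against 16389, 17922 and 18516 (difference of means -622, exact two-sided permutation p = 0.5). First exons numbered 20739, 20005 and 19512 against 19639, 20267 and 20608. Events per listed gene were 4.56, 4.41 and 4.29 against 4.22, 4.38 and 4.44. Of 21 such measures 0 had groups that did not overlap, the lowest exact permutation p was 0.2 (adjusted p = 0.933), and 3 against 3 cannot go below 0.1. Without control replicate 1, the largest catalogue, the splicing difference was 125. Pairs of control libraries shared 54.1% to 54.7% of their events, pairs of NMN libraries 54.2% to 54.4% and pairs across the groups 53.0% to 54.0%. The files give no sequencing depth, so the counting error of a listing cannot be estimated.

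**Figure D5:**
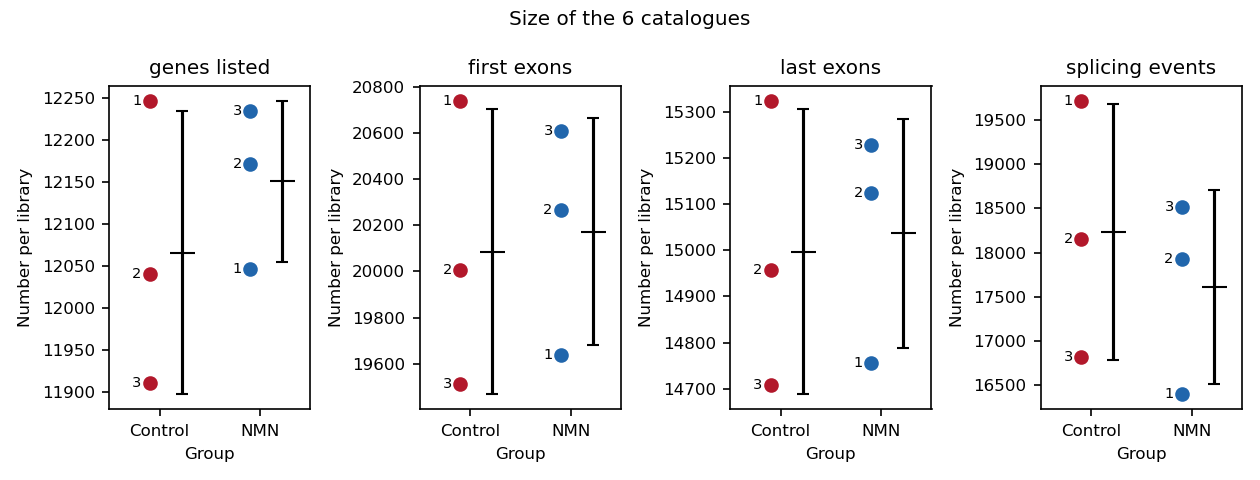
Genes listed, first exons, last exons and splicing events in each of the 3 control (red) and 3 NMN (blue) libraries, numbered by replicate; bars are the mean ± SD and the axes do not start at 0. The groups overlap in all 4 panels.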

How the data were processed

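RNA sequencing was compared between 3 NMN and 3 control libraries of BV-2, grouped by sample title. The deposited files list transcript events, with type, gene, start and end per the file headers; these positions are values of no other unit, and there are no counts or depth. BWA 0.7.12, HOMER, MACS2 2.1.0 and the build GRCm38 appear in the submitters' processing notes; which program wrote the catalogues is not stated there. Event positions did not match GRCm38 and were not converted. Partner lines ending in OFF and repeated lines were dropped. Distinct events per gene and library were tested as log2(events + 1) with limma 3.58.1 (R 4.3.3; trend, robust; all 12 libraries, 4 group means, 8 residual degrees of freedom), for genes with at least 1 event in 3 libraries: 11671 tested, 1500 below the minimum, 1104 constant. P-values were adjusted by Benjamini-Hochberg at 0.05. The fit was also run on simulated data, in which each gene's numbers were resampled over the libraries and some genes were changed. The outcome of that run is not given here and is no support for the calls. Totals were compared by exact permutation. Members, gene lists and the naming rule (size of difference, number of events, p within lists, fixed anchor genes) were chosen with earlier results of these data known. Deviations of same-numbered NMN and control libraries were correlated at 0.0220 or less, so numbers were not used as pairs. Alternatives were other filters, pseudocount, moderation, scaling, event classes, libraries and matching.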

Additional observations from a re-analysis of the deposited data

Results flagged for a closer look

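The interaction term of the limma model, with Benjamini-Hochberg adjustment, passed in 5 of 11671 genes (0.0428%). The term is LPS+NMN minus LPS, less NMN minus control, on the log2(events + 1) scale. It was -3.81 ± 0.33 (SE) for Ntng2 (adjusted p = 0.000643), -2.23 ± 0.26 for Apol9b (adjusted p = 0.00503), -2.21 ± 0.23 for H2-M2 (adjusted p = 0.00175), -2.21 ± 0.20 for Il36a (adjusted p = 0.000643) and -1.75 ± 0.25 for Urah (adjusted p = 0.0401). The term largely repeats NMN minus control with the sign turned, from the same 3 control libraries (2.21 and -2.21 for Il36a), because the LPS libraries already listed these genes. In them every control library was at 0 and every library of the 3 treated groups was listed, so NMN minus control ran from 1.86 for Urah to 4.24 for Ntng2. With LPS present, NMN made a difference of 0.43 ± 0.23 for Ntng2, 0.25 ± 0.18 for Apol9b, -0.11 ± 0.16 for H2-M2, 0.00 ± 0.14 for Il36a and 0.11 ± 0.18 for Urah, and limma called 0 of these 5. A gene already listed cannot enter a catalogue again, so the term does not show that NMN acted less on expression with LPS present.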

How the results depend on the processing

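The limma counts of 26 genes with more and 1 with fewer events depended on the libraries that set the spread and on the events counted. They were 1 and 0 with only NMN and control libraries, 2 and 0 from splicing events alone, 3 and 0 under a minimum of 5 events in 3 libraries, 25 and 3 with first and last exons alone, 27 and 5 with no filter, and 27 and 5 without trend and robust moderation. With the replicate number as a block they were 25 and 1. Same-numbered libraries had deviations correlated at 0.00677, 0.00421 and 0.0220. NMN replicates 2 and 3 correlated best with the control replicate of their own number, and NMN replicate 1 with control replicate 2 (0.00856). Leaving out 1 library gave 31 to 42 and 2 to 5, the 42 without control replicate 1. Genes listed by every NMN and no control library (49) became 184 when 2 of 3 libraries sufficed, 4 with at least 3 events in each listing library, and 76 to 99 when 1 library was left out. The opposite count (37) became 139, 0 and 48 to 77. Gained events (576) became 3274 when 2 of 3 sufficed and 938 to 1660 without 1 library, and lost events (500) 3391 and 915 to 1627. Fewer libraries make both presence rules easier to meet. The difference in splicing events (-622) ran from -1330 to 125 with 1 library left out, the 125 without control replicate 1; the cause was not tested. Of the single-gene values, 559 kept direction and side of the threshold under the alternatives, 41 lost the call, 4 gained it and none changed direction. They include genes that limma did not call, which count as kept when they stay uncalled. In Fbxo44 and the 24 called genes in no control library, direction could not change. With the NMN and control libraries alone, Ntng2 was the only call left. Depth is unknown and sets what a catalogue can list.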
